A study of Mus musculus with 2 samples.

Results

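The surface proteins that sort and subdivide KLS cells were followed through the transcripts of 10 genes, Kit, Ly6a, Cd34, Flt3, Slamf1, Cd48, Procr, Thy1, Cd27 and Esam. The members were every probe set that the platform annotation assigned to one of these genes alone, which gave 12 probe sets for 9 genes, out of 45037 non-control probe sets and 18193 genes. No probe set carried Ly6a, the gene of the Sca-1 antigen, in the annotation used, so Ly6a was not analysed here. KLS cells are bone marrow cells that lack lineage antigens and carry c-kit and Sca, and they hold the blood stem cells and the earliest progenitors of the mouse. RNA of KLS cells sorted from wild type mice was hybridised to 1 Affymetrix array, and RNA of KLS cells from mice with conditional inactivation of the TIF1γ gene (Trim33), labelled TIF1γ Δ/Δ, to another. Both came from bone marrow, were purified by the same cell sort and started from 25 ng of total RNA in a two-cycle biotin labelling. The labels do not state the age or number of mice, the driver of the inactivation or whether animals were pooled. With 1 array per genotype there was no replicate error, so no p-value or SD between samples was available and every difference below compares 2 arrays.

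In the mouse, Kit and Sca-1 set the KLS gate, and further antigens divide it. Long-term stem cells are usually sought among KLS cells that carry CD150 (Slamf1), the protein C receptor (Procr), Esam and a low level of Thy1, and that lack CD34, Flt3 and CD48. Multipotent progenitors acquire CD34, CD48 and, on the way to lymphoid fate, Flt3, while losing Thy1. Flow gates read proteins at the cell surface, whereas the arrays read transcripts of all sorted cells together.

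None of the 9 markers differed by 2-fold between the arrays, taking each gene by its brightest probe set. The largest positive difference was that of Cd34, 1.69-fold higher on the TIF1γ Δ/Δ array, and the largest negative one that of Procr, 1.51-fold lower. The 3 markers that stem cell gates require to be absent, Cd34, Flt3 and Cd48, were all higher in TIF1γ Δ/Δ cells, with a median log2 difference of 0.23. Of the 4 that such gates require to be present, Slamf1 was slightly higher and Procr, Esam and Thy1 were lower, with a median of -0.20. The 32 other stem and progenitor surface markers measured, listed below, went both ways, with 15 above 0 and 17 below. Of all genes measured on both arrays, 53.1% were above 0. Thy1 (log2 -0.016) turned sign in 2 of 9 other settings, and Slamf1 went from a log2 of 0.16 to 0.43 with the mean of its probe sets. The differences of the 9 markers were small. Across 4534 genes the SD between measured probe sets of one gene was 0.452 on the log2 scale. Of the 9 markers, only Cd34 and Procr lay beyond it. That SD describes disagreement between probe sets of a gene, not between mice. Among all 11724 genes measured on 1 array or both, 2.53% lay 2-fold or more higher in TIF1γ Δ/Δ cells and 6.01% lay 2-fold or more lower, so 0 of 9 in either direction is close to the background. At 1.5-fold, 1 of 9 genes was higher and 1 lower, against 13.5% and 15.3% of all genes.

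Signals were MAS5 intensities on a linear scale. A probe set counted as measured on an array when it reached that array's median over non-control probe sets, a floor of 14.4 for wild type and 11.7 for TIF1γ Δ/Δ. Differences are log2 TIF1γ Δ/Δ minus wild type after removal of the median difference of -0.024. Of the 12 marker probe sets, 10 were measured on both arrays, 1 on the TIF1γ Δ/Δ array alone and 1 on neither, and each of the 9 genes had at least 1 measured on both. Probe sets differ in how brightly they report a transcript, so the markers are not ranked against each other by level.

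The labels of the sort and of the genotype were checked on the same arrays. Trim33 read 379 in wild type and 172 in TIF1γ Δ/Δ cells (1426954_at, log2 -1.12), and the sources used here do not say whether this probe set lies in the deleted part. Kit was measured on both arrays, and of 11 lineage antigens with a probe set 7 reached the floor in wild type and 2, Ptprc and Il7r, in TIF1γ Δ/Δ cells. The 4 below it on both were Cd3e, Cd4, Cd5 and Itgam. Markers of mature neutrophils and macrophages, which a lineage-negative sort is meant to leave out, were nonetheless bright on the wild type array. All 19 with a probe set were measured there and 7 in TIF1γ Δ/Δ cells, each of the 19 was 2-fold or more lower in the latter, and their summed intensity was 40013 against 810. Of the erythroid genes, 7 of 10 measured lay 2-fold or more lower and none higher, at summed intensities of 6654 and 3090. Most of both sums came from Car2, at 2879 and 2016 (log2 -0.49), and Car1, at 2154 and 673 (log2 -1.65). Among all genes, 6.01% lay 2-fold or more lower and 2.53% higher. No marker on either list read exactly 0, but 12 of 19 neutrophil and macrophage markers and 3 of 11 erythroid genes were below the floor in TIF1γ Δ/Δ cells. The part of these cells' RNA in the differences of the sort markers was not tested. In such bulk RNA, fewer cells of a type and less RNA per cell cannot be told apart.

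Esam, Procr and Cd34 are also made by endothelial cells, and Thy1 by T cells. Of 14 endothelial markers, 7 reached the floor in wild type and 9 in TIF1γ Δ/Δ cells, with summed intensities of 628 and 658. Most of these sums came from Egfl7, without which they were 191 and 240. The defining endothelial genes Cdh5, Pecam1, Kdr and Flt1 were under the floor on both arrays. Tek (log2 1.02) and Emcn, from 10.8 to 28.8 (at least 2.03-fold), were higher in TIF1γ Δ/Δ cells, and none of the list was 2-fold lower. Tek and Emcn are also among the other stem and progenitor surface markers below. Among all genes, 2.53% lay 2-fold or more higher and 6.01% lower. Tek and Emcn shared the direction of Cd34 and went opposite to Procr and Esam. Of the 9 measured endothelial genes, 5 were above 0 and 4 below, counting Sox18, which was measured on the TIF1γ Δ/Δ array alone. Sox18 read 5.34, under the floor, and 13.3, so its log2 of -0.092 is a lower bound and shows no lower signal. The count of 2 higher became 0 with no further scaling, a 65th percentile floor or a pseudocount of 16. The part of endothelial RNA in the marker differences was not tested. Of 11 T and B lymphocyte markers, 7 were measured in wild type and 2 in TIF1γ Δ/Δ cells, with summed intensities of 5826 and 5342, most of it from Ighm at 5409 and 5169. Of 8 measured Ighm probe sets, only 3 shared the sign of the brightest one (log2 -0.042). Without Ighm the sums were 416 and 173. Ms4a1, the B cell antigen CD20, was at least 10.7-fold lower (127 and 9.02, 2 of 2 probe sets) and Cd3d at least 2.38-fold lower, while Cd3e and Cd4 were under the floor on both arrays.

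**Figure D1:**
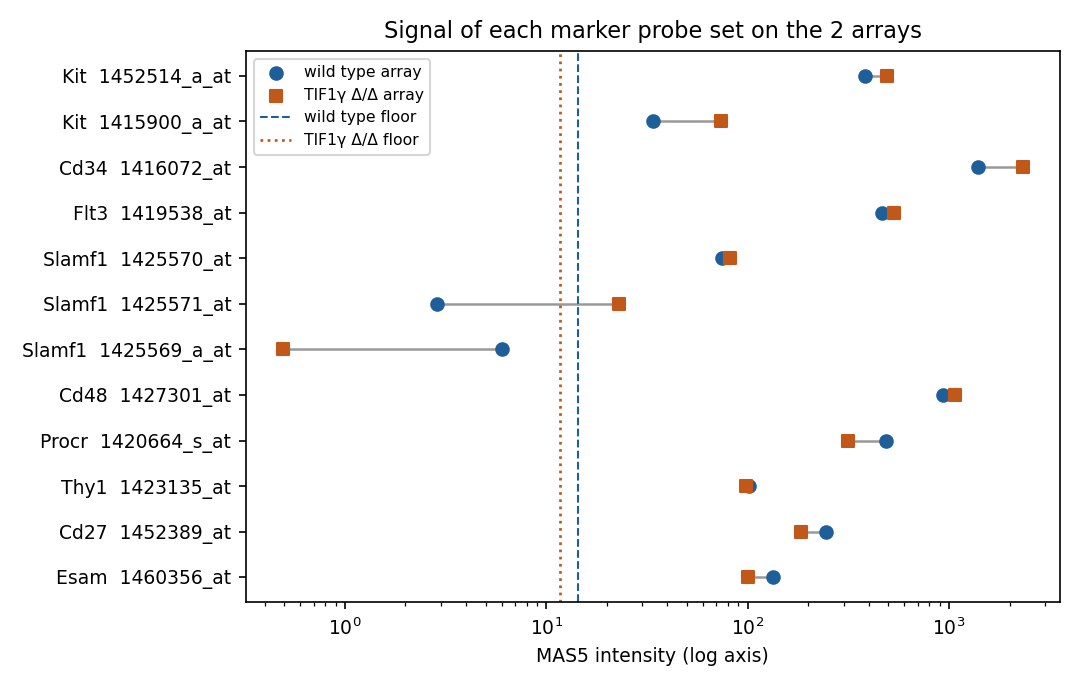
MAS5 intensity (log axis) of the 12 marker probe sets on the wild type array (circles) and the TIF1γ Δ/Δ array (squares), with each array's floor as a vertical line. Only 2 Slamf1 probe sets fall below a floor, and the widest separation among the others is that of the dimmer Kit probe set, from 33.9 to 73.5.

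Kit encodes the receptor tyrosine kinase for stem cell factor and is a positive antigen of the gate. Its brighter probe set, 1452514_a_at, read 384 in wild type and 495 in TIF1γ Δ/Δ cells, which is 1.31-fold higher (log2 0.39). The dimmer one, 1415900_a_at, gave 33.9 and 73.5, a log2 difference of 1.14 or 2.21-fold. Both were higher in TIF1γ Δ/Δ cells, but they differed from each other by a log2 of 0.75, more than the usual scatter between probe sets. The dimmer Kit probe set was the only 1 of the 12 at least 2-fold apart. Among all 24593 probe sets measured on 1 array or both, 2.59% lay 2-fold or more higher and 7.2% lay 2-fold or more lower. At 1.5-fold, 3 of the 11 marker probe sets measured on 1 array or both were higher and 1 was lower, against 12.5% and 17.8% of all probe sets. Averaging both probe sets placed Kit at a log2 of 0.77.

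Flt3 encodes the receptor for Flt3 ligand, which belongs to the same receptor class as Kit. Its only probe set, 1419538_at, read 464 in wild type and 534 in TIF1γ Δ/Δ cells (log2 0.23). Of all probe sets measured on both arrays, 67.5% lay at least as far from 0. For Flt3 the 2 arrays were thus closer than for most probe sets.

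Cd34 encodes a sialomucin of progenitor and endothelial cells. Its probe set, 1416072_at, read 1398 in wild type and 2326 in TIF1γ Δ/Δ cells, a log2 difference of 0.76. It stood above 97.2% of non-control probe sets on the wild type array and above 98.4% on the TIF1γ Δ/Δ array. Ranks so near the top of the scale have little room to rise, so their step does not measure the size of the difference. Of all 20445 probe sets measured on both arrays, 7.32% were as much higher or more, and 17.9% lay at least as far from 0 in either direction. Among the brightest 20% of them, 9.95% were at least as far from 0 in either direction.

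Procr encodes the endothelial protein C receptor, a frequent positive marker of stem cells. Its probe set, 1420664_s_at, read 486 in wild type and 316 in TIF1γ Δ/Δ cells, a log2 difference of -0.60. It stood above 92.8% of probe sets on the wild type array and above 89.4% on the TIF1γ Δ/Δ array. Of probe sets measured on both arrays, 15.1% were as much lower or more. The suffix _s_at marks a probe set whose probes can match several transcripts, and Procr had no other, so no further probe set can be set beside it.

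Cd34 and Procr, a pair chosen after their values were seen, differed in opposite directions, and their ratio is untouched by any constant scaling of an array. Relative to Procr, the Cd34 signal was 2.56-fold higher on the TIF1γ Δ/Δ than on the wild type array. Kit relative to Procr was 1.99-fold higher, Flt3 relative to Procr 1.77-fold and Cd48 relative to Procr 1.78-fold. Such ratios show unequal differences between 2 genes and do not say which of them differed.

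The 250 bases before the RefSeq start of Kit, Cd34 and Procr (build GRCm38.p6, written 5′ to 3′ on the gene's strand) are shown because these are the sort marker and the members at either end of the range. For Kit the first of 2 listed starts was taken. Capitals mark the letters GGAAG, the core that many ETS factors bind, on either strand (its reverse complement where the motif lies on the other strand).
Kit, chr5:75574737-75574986 (+ strand): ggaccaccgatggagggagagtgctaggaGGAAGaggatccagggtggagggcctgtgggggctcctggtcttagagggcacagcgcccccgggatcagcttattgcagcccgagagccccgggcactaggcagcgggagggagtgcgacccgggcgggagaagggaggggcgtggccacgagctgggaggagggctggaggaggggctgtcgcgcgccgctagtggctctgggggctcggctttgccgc
Cd34, chr1:194938571-194938820 (+ strand): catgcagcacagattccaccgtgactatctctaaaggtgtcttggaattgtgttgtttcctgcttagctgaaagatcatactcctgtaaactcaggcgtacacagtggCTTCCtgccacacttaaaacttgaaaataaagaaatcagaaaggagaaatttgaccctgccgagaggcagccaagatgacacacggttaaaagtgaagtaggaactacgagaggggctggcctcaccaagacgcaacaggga
Procr, chr2:155750967-155751216 (+ strand): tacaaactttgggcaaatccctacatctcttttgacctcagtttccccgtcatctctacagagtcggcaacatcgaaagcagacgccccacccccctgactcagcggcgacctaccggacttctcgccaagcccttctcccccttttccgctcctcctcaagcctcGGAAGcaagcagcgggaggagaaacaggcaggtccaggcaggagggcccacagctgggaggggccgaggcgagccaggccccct
Each held 1 such match, 221 bases before the start in Kit, 142 in Cd34 and 84 in Procr. The motif, on either strand, occurs in 63.6% of the 27025 promoters of this length, so its presence sets none of the 3 apart. GATAA on either strand, a GATA-type motif found in 23% of promoters, was in none of these 3 windows. The GC content was 70.8% in Kit, 46.4% in Cd34 and 61.6% in Procr, against a median of 52% over all promoters. Of the 9 markers, 7 had a promoter in the table used.

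**Figure D2:**
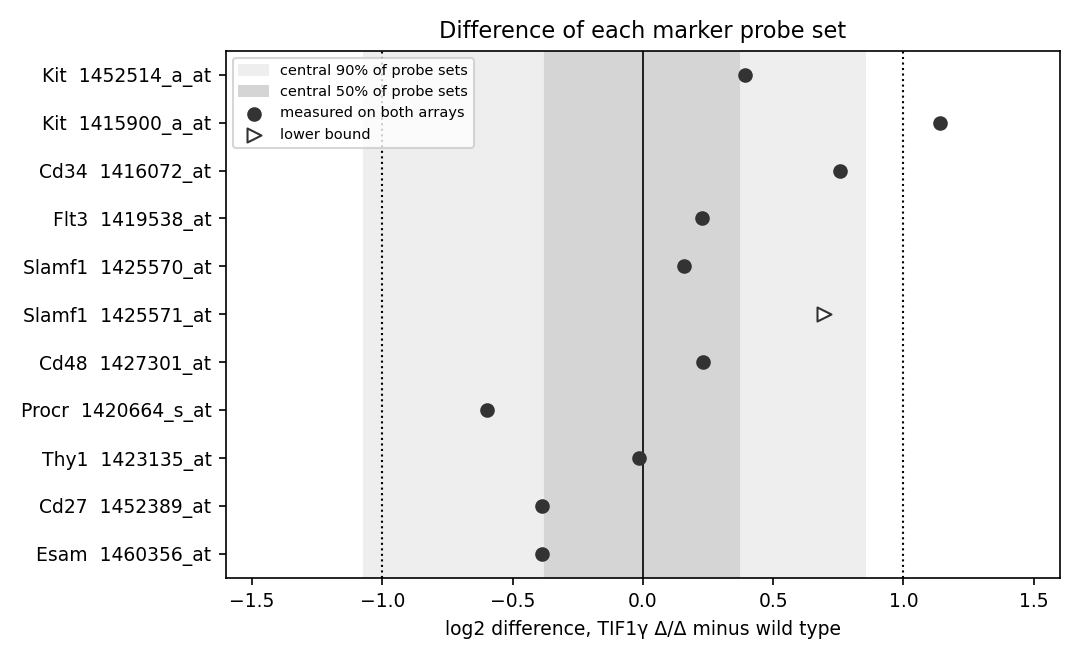
Log2 difference (TIF1γ Δ/Δ minus wild type) of the 11 marker probe sets measured on 1 array or both, over the central 50% and 90% of the 20445 probe sets measured on both (grey bands); dotted lines mark 2-fold and the open triangle is a lower bound. The dimmer Kit probe set is the only one beyond the 90% band.

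Slamf1 encodes CD150, the SLAM family receptor carried by stem cells. Its probe set 1425570_at read 74.7 in wild type and 81.8 in TIF1γ Δ/Δ cells (log2 0.16). A further probe set, 1425571_at, gave 2.88, below the floor, and 23.0, which makes it at least 1.62-fold higher. The third, 1425569_a_at, lay under the floor on both arrays, at 6.02 and 0.493, and has no fold. The bright Slamf1 probe set placed the arrays close together, and the bound of the second rests on a signal less than 2-fold over the floor.

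Cd48 encodes a lipid-anchored SLAM family protein that binds CD244 and CD2. It read 933 in wild type and 1077 in TIF1γ Δ/Δ cells (log2 0.23), with 67.2% of probe sets at least as far from 0. The difference was about equal to that of Flt3 (log2 0.23) and smaller than that of Cd34 (log2 0.76).

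Thy1 encodes a lipid-anchored immunoglobulin family protein of T cells and, at a low level, of stem cells in some mouse strains. It read 101 in wild type and 98.6 in TIF1γ Δ/Δ cells (log2 -0.016), and 97.8% of probe sets lay at least as far from 0. This was the smallest difference of the 9 markers.

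Esam encodes an adhesion molecule of endothelial and stem cells. It read 133 in wild type and 100.1 in TIF1γ Δ/Δ cells, a log2 difference of -0.39 or 1.31-fold lower. Cd27, the receptor for CD70 on lymphoid-primed and other progenitors, gave 245 and 184, also a log2 of -0.39. For each of them 47.9% of probe sets lay at least as far from 0, so both sat in the middle of the distribution of sizes.

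**Figure D3:**
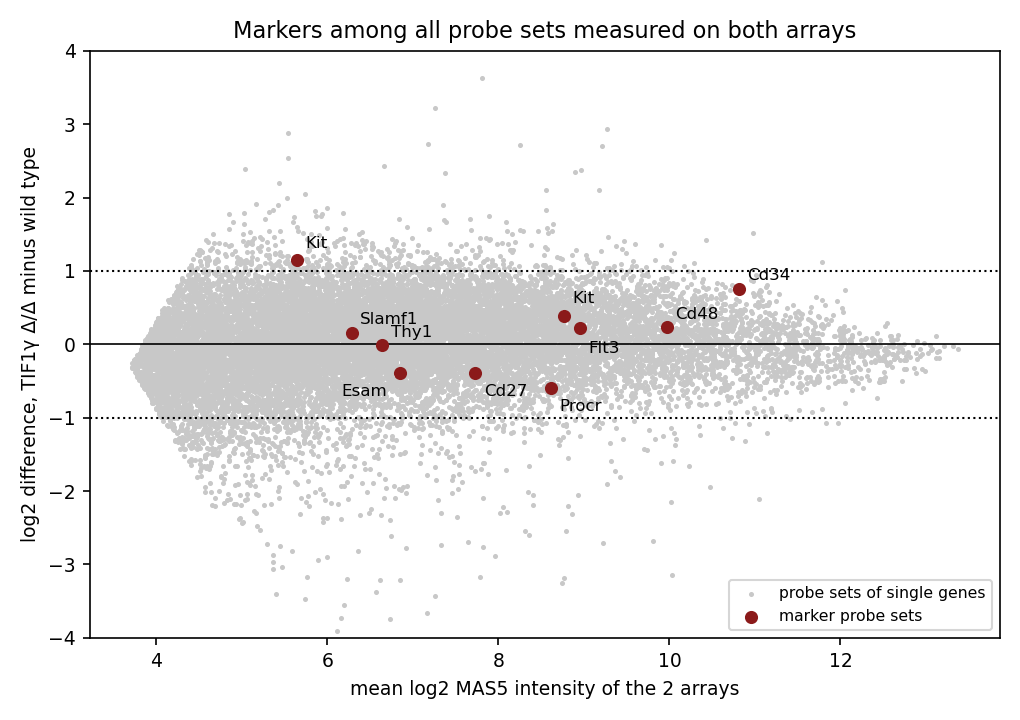
Log2 difference (TIF1γ Δ/Δ minus wild type) against mean log2 MAS5 intensity of the 2 arrays for the 17738 single-gene probe sets measured on both (grey) and the 10 marker probe sets among them (red); dotted lines mark 2-fold, and 11 grey points lie beyond the axis. The dimmer Kit probe set (log2 1.14) is the only marker beyond 2-fold, and Cd34 (log2 0.76) is the next highest.

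Apart from Ptprc and Il7r, the lineage antigens were near the floor or below it in wild type cells, and below it in TIF1γ Δ/Δ cells. Cd3d, a chain of the T cell receptor complex, gave 28.2 and 1.79 and was at least 2.38-fold lower, and Cd2 gave 26.9 and a signal under the floor and was at least 2.27-fold lower. Ptprc, the pan-leukocyte CD45 whose B cell form is a lineage antigen, gave 1535 and 1618 (log2 0.10). Il7r, which marks lymphoid progenitors, had a log2 difference of -0.33 over 2 of 2 probe sets.

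Other surface markers of stem and progenitor cells ranged from a log2 of -2.60 to 2.93. Of 38 listed genes, 32 were measured, 5 lay 2-fold or more higher and 5 lay 2-fold or more lower, against 2.53% and 6.01% of all genes, and their median of -0.012 was close to that of all genes, 0.00023. The higher count was 3 with no further scaling, a 65th percentile floor or a pseudocount of 16, and Tek (log2 1.02) and Emcn (at least 2.03-fold) stood at the threshold. Both genes also belong to the endothelial list above. The receptors that separate myeloid progenitors by CD16/32 went in opposite directions, Fcgr2b from 226 to 1699 (log2 2.93) and Fcgr3 from 231 to 53.1 (log2 -2.10). These related receptors can share signal on probe sets with the suffix _s_at, such as that of Fcgr2b, although 4 of 4 measured probe sets of Fcgr2b were higher. Prom1, the CD133 antigen, gave 62.9 and 9.39 and was at least 5.31-fold lower. Cxcr4, the homing receptor for Cxcl12, had a log2 difference of -2.60. On the higher side, Itgb3, an integrin of megakaryocytes and stem cells, had a log2 difference of 1.34 and Cd244a of 1.22. Of the brightest genes, Cd24a, at 4568 and 3670, had a log2 difference of -0.29, Cd44 of 0.051 and Cd47 of -0.038, the last with the sign of only 1 of its 5 measured probe sets.

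Among SLAM family genes, 7 relatives of Slamf1 and Cd48 were measured. Their median was -0.81, and 1 lay 2-fold or more higher and 2 lower, against 2.53% and 6.01% of all genes. With Slamf1 and Cd48 included the median was -0.35, and it ranged from -0.54 to -0.075 over 9 other settings. Ly9 was level at 18.8 and 18.5. The count of 2 lower genes became 0 with a 65th percentile floor and 1 with a pseudocount of 16. Slamf8, a family member of macrophages, gave 42.5 and 9.54 and was at least 3.59-fold lower, and Slamf7 gave 40.2 and 15.5 (log2 -1.35). Cd84 gave 252 and 140 (log2 -0.82). Cd244a, the receptor for Cd48 and itself a marker of multipotent progenitors, went the other way, from 245 to 562 (log2 1.22, 2 of 2 probe sets), but stayed under 2-fold when its probe sets were averaged. Mature myeloid markers, at a median of -4.57, shared the direction of Slamf8, Slamf7 and Cd84, and of Fcgr3 and Itgb2 described with the other lists. Csf1r, also lower, is itself one of the mature myeloid markers. The part of mature myeloid RNA in these values was not tested.

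Of the Ly6 family, to which Ly6a belongs, 9 of 15 genes with a probe set were measured, with a median of -0.70. Ly6d, which marks B-lineage-specified lymphoid progenitors, gave 50.5 and 12.3 (log2 -2.02) and was the only member 2-fold apart. Among all genes, 6.01% lay 2-fold or more lower and 2.53% higher. The second value of Ly6d lay just over the floor of 11.7, and with a 65th percentile floor no member was 2-fold apart. The median was -0.24 with no floor and -0.17 with a pseudocount of 16. Ly6e gave 1762 and 2113 (log2 0.29), although only 1 of its 2 measured probe sets was higher. Plaur, the urokinase receptor, was at -0.025.

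In the receptor class of Kit (log2 0.39) and Flt3 (log2 0.23), 2 relatives were more than 2-fold apart, in opposite directions. Csf1r, a growth factor receptor of monocytes and macrophages, read 684 and 91.1 (log2 -2.88), and Pdgfrb gave 118 and 279 (log2 1.27). The Kit ligand gene Kitl lay near the floor at 15.9 and 21.3 (log2 0.45, 1 of 2 probe sets higher). Among all genes, 2.53% lay 2-fold or more higher and 6.01% lower. Of 30 genes that relay or curb Kit and Flt3 signals, 28 were measured, and none was 2-fold apart. Of these, 19 were above 0, with a median of 0.27, which ranged from 0.12 to 0.33 over 9 other settings. Of all genes measured on both arrays, 53.1% were above 0, with a median of 0.044. The phosphatase Ptpn11 gave 404 and 724 (log2 0.86, 1 of 3 probe sets higher), the phospholipase Plcg2 gave 437 and 708 (log2 0.72), the phosphatase Ptpn6 was at -0.071 and the adaptor Sla at 0.065.

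Partners and relatives of the other markers, leaving out Esam, had a median of 0.034 over 18 measured genes. Adam17 and Cd244a made up the 2 at least 2-fold higher, and Itgb2 and Cd2 the 2 lower, against 2.53% and 6.01% of all genes. Cd244a and Cd2 also belong to lists given above. Adam17, a protease that sheds many surface proteins, gave 135 and 360 (log2 1.44, 2 of 2 probe sets), and was under 2-fold with the mean of its probe sets. Itgb2, the beta chain of leukocyte integrins, gave 399 and 128 (log2 -1.62). F2r, the thrombin receptor through which the protein C receptor can signal, gave 3400 and 4200 (log2 0.33), and Cd164, a sialomucin, gave 2460 and 2841 (log2 0.23). Cd70, the ligand of Cd27, was under the floor on both arrays.

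**Figure D4:**
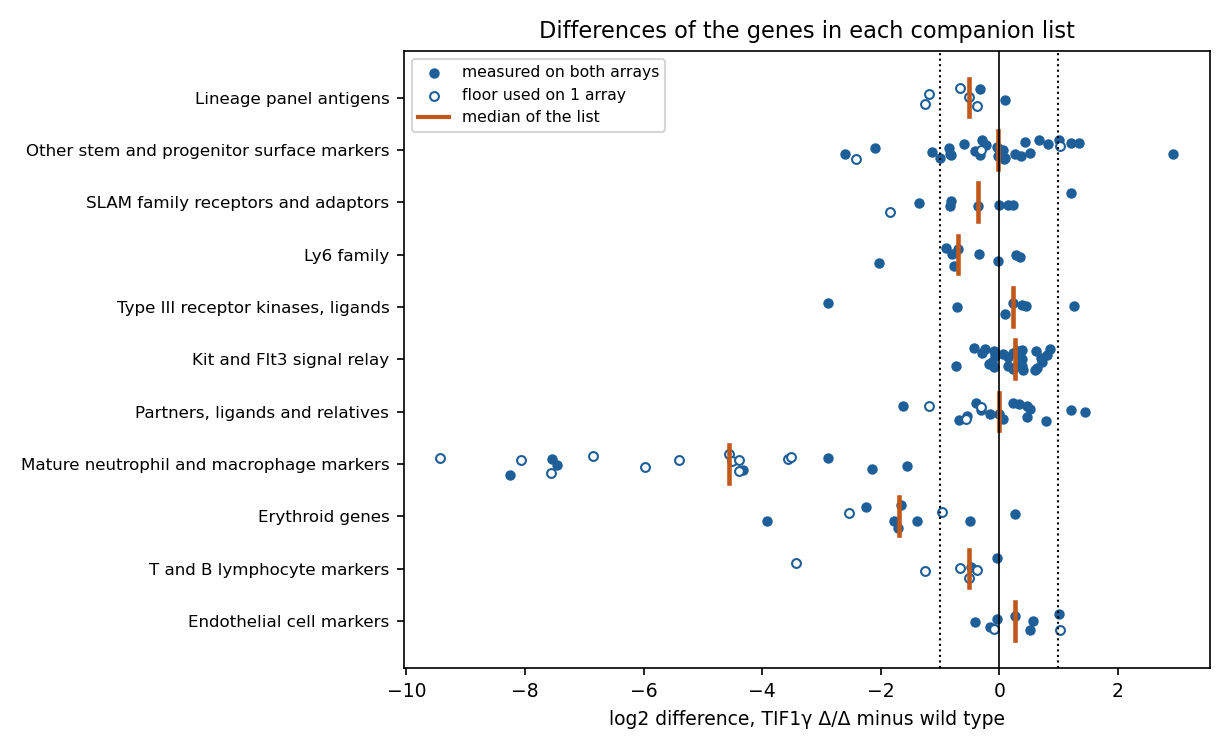
Log2 difference (TIF1γ Δ/Δ minus wild type) of each measured gene in the companion lists (points, with vertical jitter; open points use the floor on 1 array), with the median of each list (orange bar) and 2-fold (dotted lines). Neutrophil and macrophage markers reach furthest to the left, with a median of -4.57, while the signal relay genes all lie within 2-fold.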

How the data were processed

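Total RNA of 1 wild type and 1 TIF1γ Δ/Δ sample of KLS cells was measured on 1 array each. The deposited intensity values were made by the authors with MAS5, as listed in the submitters' processing notes; its version, filters and detection calls were not stated there. Both arrays had a mean of 100 after trimming 2% at each end, so the values had been scaled. Of 45101 probe sets, 64 controls were left out, and 34945 of the rest carried a single gene. Symbols were updated by Entrez identifier to RefSeq GRCm38.p6. A gene was represented by its brightest probe set by mean log2 signal. Signals under the floor on 1 array were replaced by the floor and give bounds. No test between genotypes was possible, and precision is limited by the array number.

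The members and lists were chosen with earlier results of these data known. Named list genes are up to 6 at least 2-fold apart and up to 4 of the brightest. The procedure was tested on simulated data. Alternatives covered scaling, floor, pseudocount, probe set rule and fold. Python 3.11.15 was used with numpy 2.4.6, pandas 2.3.3, statsmodels 0.14.6 and matplotlib 3.10.9.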

Additional observations from a re-analysis of the deposited data

How the results depend on the processing

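The settings changed were scaling (none, quantile, loess), the floor (40th or 65th percentile, or none) and a pseudocount of 16. Others were the mean of all probe sets and leaving out probe sets with the suffix _s_at, _x_at or _a_at. All these settings kept the sign of 8 of the 9 markers wherever they gave a value. Cd34 ranged from 0.70 to 0.85, Procr from -0.72 to -0.51, Slamf1 from 0.086 to 0.43 and Kit from 0.27 to 0.77 on the log2 scale, while Thy1 ranged from -0.12 to 0.077. Without probe sets of these suffixes, Kit and Procr had no value, since both Kit probe sets carry _a_at and that of Procr _s_at. No marker gene reached 2-fold under these settings. At 1.5-fold, 1 gene (Cd34) was higher and 1 (Procr) lower, against 13.5% and 15.3% of all genes. Of marker probe sets, 1 was at least 2-fold higher in the main setting, 2 with a 40th percentile floor, 2 with no floor, 0 with a 65th percentile floor, 0 at 3-fold, and 3 were at least 1.5-fold higher. At least 2-fold lower there were 0, 1 with no floor, and 1 at 1.5-fold. The probe sets that entered or left these counts with the floor were those of Slamf1 and the dimmer one of Kit. The medians of the other stem and progenitor markers, of partners and relatives, of the type III receptor class and of endothelial markers changed sign in at least 1 of 9 settings. Of the other gene lists' medians and counts over all settings, 282 stayed within 1.5 times the count or 1 probe set SD and 59 did not. No paired analysis was possible because each group held 1 array. Signals near the floor limit the readings of Slamf1, Kitl and most lineage antigens.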
